A study of Mus musculus with 34 samples.

Results

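The cortex of untreated mice was compared with the thalamus of untreated mice, which was dissected in 1 piece with the striatum. The comparison takes 7 of the 34 RNA-seq libraries of the series, chosen by the region and treatment in their labels: 3 of cortex (mice 34, 35 and 36) and 4 of thalamus (mice 33, 34, 35 and 36). Mice 34, 35 and 36 gave both regions. All of them were WT CON mice, C57BL/6 animals of the vehicle group that received no irradiation, no bone marrow and no PLX3397. According to the methods they were male, and their age is not in the labels. Each library holds the RNA of 1 region of 1 mouse, taken after perfusion and micro-dissection. The same contrast was looked up in 2 other groups of C57BL/6 mice that share no library with WT CON. GFP-BM CON mice (4 cortex and 3 thalamus libraries) had been irradiated over the whole body and given bone marrow from donors in which the CAG promoter drives green fluorescent protein. GFP-BM REPOP mice (4 cortex and 4 thalamus libraries) had in addition been fed PLX3397, an inhibitor of the receptor CSF1R that removes microglia, and then left to recover. Levels are given as FPKM, fragment counts scaled to gene length and library size. A list of values runs in the order of mice 34, 35 and 36 for cortex and of mice 33, 34, 35 and 36 for thalamus.

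The cortex is a layered sheet of glutamatergic projection neurons with a minority of GABAergic interneurons, and its projection neurons load glutamate into vesicles with the transporter *Slc17a7*. The thalamus relays sensory and motor signals to the cortex through glutamatergic neurons that use *Slc17a6* instead, and it develops from the diencephalon, next to the habenula and the hypothalamus. The striatum, like the cortex, is part of the telencephalon, and nearly all of its neurons are GABAergic projection neurons that carry dopamine receptors.

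The WT CON thalamus library of mouse 34 stood apart from the other 3. Its levels over the 14021 genes tested had rank correlations of 0.881 to 0.942 with the other thalamus libraries, which correlated with each other at 0.969 to 0.977, while the cortex libraries correlated at 0.987 to 0.993. Its highest correlation among the WT CON libraries, 0.973, was with the hippocampus of mouse 33. Of 21 markers of thalamic relay neurons tested, 12 lay within the range of the other 3 thalamus libraries there, 8 lay under it and 1 over it. *Tcf7l2*, a transcription factor of thalamic neurons, had 18.8 FPKM there and 6.76 FPKM in that hippocampus library, and *Slc17a6* had 4.72 FPKM, under every cortex library. The reads behind the 7 libraries, recovered from the FPKM, came to between 17969202 and 25571445. The libraries also differed in how genes of high and low GC content were represented. A GC measure, the median log2 level of the tenth of genes with the highest GC content minus that of the tenth with the lowest, was 0.597, 1.00 and 0.534 in cortex and 0.882, 3.34, 1.85 and 1.13 in thalamus. The cortex and thalamus ranges overlapped, since the thalamus of mouse 33 lay below the cortex of mouse 35. The difference of 1.09 between the means (0.710 ± 0.253 for cortex and 1.80 ± 1.11 for thalamus, SD, n = 3 and 4) had a two-sided exact permutation p of 0.114, where 0.0571 is the smallest this design allows. In the hippocampus of mouse 33 the measure was 3.03, and in the GFP-BM libraries of cortex and thalamus it lay between 0.274 and 0.752. Results are therefore also given without the thalamus of mouse 34, and the part of GC content in them was tested only through the correction described with the counts.

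**Figure D1:**
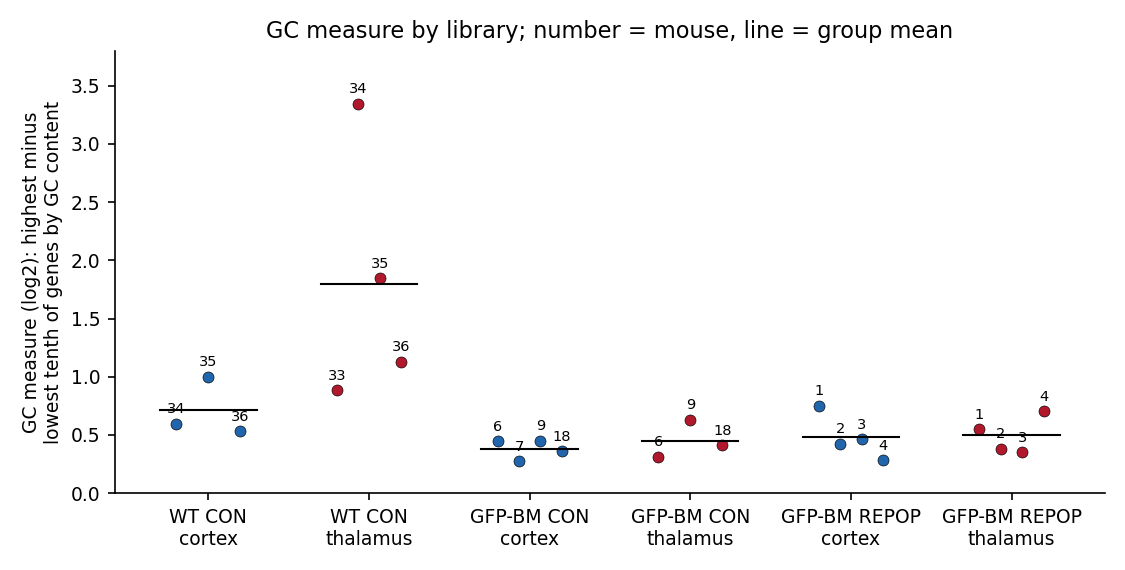
The GC measure of each cortex (blue) and thalamus (red) library on a log2 scale, with the mouse number above each point and a line at the group mean. The WT CON thalamus of mouse 34 lies at 3.34, above the 1.85 of mouse 35, and all GFP-BM libraries lie between 0.274 and 0.752.

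Of the 14021 genes with an FPKM of at least 1 in 3 or more of the 7 libraries, 535 (3.82%) were higher in cortex and 770 (5.49%) were higher in thalamus at an adjusted p under 0.05 by limma on log2(FPKM + 0.1). The median log2 difference over all genes, always coded as thalamus minus cortex, was -0.01. Libraries of the groups did not overlap for 2532 genes that were higher in cortex (18.1%) and 2640 that were higher in thalamus (18.8%), and all genes called were among them. Without the thalamus of mouse 34, 1597 genes (11.4%) were higher in cortex and 1528 (10.9%) in thalamus, and these included all 535 and all 770 genes called with it. The median SD between thalamus libraries was 0.29 on the log2 scale with mouse 34 and 0.16 without it, against 0.10 between cortex libraries. With the mouse as a replicate block, since mice 34 to 36 gave both regions, 690 genes were higher in cortex and 501 in thalamus. The difference under the block rests on mice 34 to 36 alone, since mouse 33 gave only thalamus. The block also adds terms for the mice to the fit, which leaves fewer degrees of freedom for the spread. A call lost or gained there can therefore come from the pairing, from the missing library or from those added terms. These were not told apart. Of the 535 and 770 genes, 342 and 454 were called under the block too. Other scalings and corrections moved the split between the regions as well: it was 767 against 1518 after quantile normalization and 1513 against 969 once GC content and length were corrected for.

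Leaving out 1 of the 3 cortex libraries, which leaves 2 against 4, cost most calls, and the cause was not tested. Without the cortex of mouse 34, 35 or 36 the genes higher in cortex numbered 102, 84 and 81 and those higher in thalamus 174, 154 and 169. Without the thalamus of mouse 33, 35 or 36 they numbered 857, 224 and 313, and 965, 314 and 363. The paragraphs below therefore say how many calls of a list held in each of the 7 fits that leave out 1 library.

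**Figure D2:**
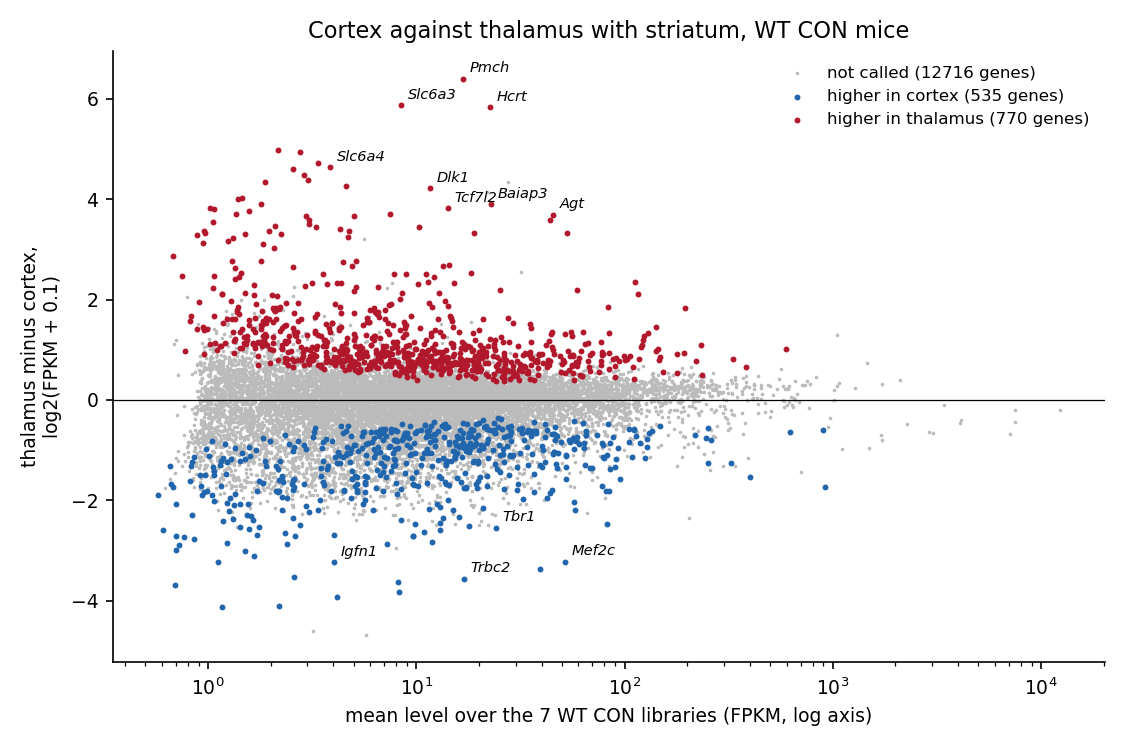
Each point is 1 of the 14021 genes tested in WT CON mice, with its mean level over the 7 libraries in FPKM on a log axis and its thalamus minus cortex difference on the log2(FPKM + 0.1) scale. The 535 genes higher in cortex (blue) and the 770 higher in thalamus (red) include *Trbc2* and *Mef2c* at the bottom and *Pmch*, *Slc6a3* and *Hcrt* at the top.

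Markers of excitatory cortical neurons were higher in cortex. Of 12 cortical excitatory markers, 8 were higher in cortex and 0 in thalamus, with a median log2 difference of -1.56. *Tbr1*, a T-box factor of deep-layer neurons (chromosome 2, 61802863 to 61814114 in GRCm38), had 46.1, 45.6 and 43.7 FPKM in cortex and 14.6, 9.25, 5.75 and 4.4 FPKM in thalamus. Every thalamus library lay under every cortex library, with mouse 33 the highest of them, and the log2 difference was -2.54 ± 0.37 (SE, adjusted p = 0.00932). *Emx1*, a homeobox factor of the dorsal telencephalon, had 17.4, 20.4 and 16.6 FPKM in cortex and 5.36, 4.83, 3.52 and 1.1 FPKM in thalamus, a difference of -2.47 ± 0.50 (SE, adjusted p = 0.0249). Further calls were *Mef2c* (-3.22 (adjusted p = 0.0236)), *Neurod6* (-2.52 (adjusted p = 0.023)) and *Neurod2* (-1.68 (adjusted p = 0.0302)), which are transcription factors of excitatory neurons, the neuropeptide precursor *Cck* (-1.25 (adjusted p = 0.0221)) and *Nrn1* (-0.74 (adjusted p = 0.011)), which encodes a protein that promotes neurite growth. *Slc17a7* itself had 475, 535 and 493 FPKM in cortex and 265, 334, 173 and 106 FPKM in thalamus. Its groups did not overlap either, but the difference of -1.32 ± 0.36 (SE, adjusted p = 0.0643) missed the threshold and passed it without the thalamus of mouse 34 (-1.56, adjusted p = 0.0147). In bulk tissue such a difference can come from fewer cells of a type or from less RNA per cell, which cannot be told apart here. Of the 8 calls, 1 held in each of the 7 fits that leave out 1 library and 7, all those named here, were lost without the cortex of mouse 34 among others, and *Cck* lost its call under the replicate block (adjusted p = 0.0502).

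Genes that mark single layers of the cortex differed less uniformly. Of 21 tested, 3 were higher in cortex and 1 in thalamus, with a median of -0.56. *Lamp5*, a membrane protein of upper-layer neurons and of a class of interneurons, had 93.7, 104 and 103 FPKM in cortex and 20.7, 34.7, 24.6 and 19.8 FPKM in thalamus. No thalamus library came near the cortex libraries, and the difference was -2.03 ± 0.20 (SE, adjusted p = 0.00227). *Cux2*, a homeobox factor of the upper layers, had 20.4, 24.2 and 23.1 FPKM in cortex and 12.3, 12.8, 12.4 and 12.3 FPKM in thalamus, a difference of -0.85 ± 0.10 (SE, adjusted p = 0.00467) in which the 4 thalamus libraries lay within 1 FPKM of each other. *Cplx3*, a complexin of deep-layer neurons, had a difference of -1.37 ± 0.24 (SE, adjusted p = 0.0161). *Nxph4*, which encodes a secreted ligand of neurexins and marks the deepest layer, was the call in the other direction, with 2.95, 2.49 and 2.84 FPKM in cortex and 8.24, 17, 9.1 and 9.27 FPKM in thalamus and a difference of 1.88 ± 0.26 (SE, adjusted p = 0.00744). Of these 4 calls, *Cux2*, *Lamp5* and *Nxph4* held in each fit that leaves out 1 library and *Cplx3* was lost without the cortex of mouse 34. *Rorb*, *Fezf2*, *Bcl11b* and *Foxp2*, factors of the middle and deep layers, had differences of -1.56, -1.71, -0.92 and -0.98 that did not pass (adjusted p = 0.138, 0.146, 0.307 and 0.387).

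Markers of thalamic relay neurons were higher in thalamus. Of 23 listed genes 21 were tested, and 17 were higher in thalamus and 0 in cortex, with a median of 1.92. Their summed level was 123, 119.7 and 133 FPKM in cortex and 435, 475, 391 and 675 FPKM in thalamus, with the highest sum in mouse 36. *Tcf7l2* (chromosome 19, 55741797 to 55933659 in GRCm38) had 1.63, 1.08 and 1.89 FPKM in cortex and 18.4, 18.8, 19.2 and 38.8 FPKM in thalamus. Mouse 36 stood above the other 3, which lay within 1 FPKM of each other, and the difference was 3.83 ± 0.31 (SE, adjusted p = 0.00168). *Prkcd*, a protein kinase C isoform of relay neurons, had 5.45, 3.8 and 9.07 FPKM in cortex and 69.2, 85.7, 45.8 and 88.6 FPKM in thalamus, and *Calb2*, the calcium buffer calretinin, had 7.12, 9.84 and 7.66 FPKM in cortex and 57.4, 100.2, 67.7 and 120.0 FPKM in thalamus. Neither gene had overlapping groups, and the differences were 3.59 ± 0.33 (SE, adjusted p = 0.00201) and 3.33 ± 0.27 (SE, adjusted p = 0.00167). *Gbx2*, a homeobox factor that thalamic neurons need to form, rested on 12 reads over the 3 cortex libraries and had 2.83, 3.66, 3.65 and 7.5 FPKM in thalamus, a difference of 4.61 ± 0.39 (SE, adjusted p = 0.00189). *Shox2* (4.26 (adjusted p = 0.0188)) and *Lef1* (1.80 (adjusted p = 0.00789)), further transcription factors of the thalamus, *Tnnt1* (2.67 (adjusted p = 0.00163)), a troponin, *Synpo2* (2.32 (adjusted p = 0.00232)), an actin-binding protein, and *Ramp3* (1.61 (adjusted p = 0.0112)), a partner of G protein-coupled receptors, were called as well. Of the 17 calls, 10 held in each fit that leaves out 1 library, the fewest being called without the cortex of mouse 35, and all 17 held under the replicate block.

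The vesicular glutamate transporter of the thalamus, *Slc17a6*, was not among the calls. It had 6.21, 6.83 and 6.98 FPKM in cortex and 32, 4.72, 18.6 and 52.2 FPKM in thalamus. The thalamus of mouse 34 lay under every cortex library while the other 3 lay above all of them, and the difference of 1.54 ± 0.72 (SE, adjusted p = 0.198) became 2.22 (adjusted p = 0.00714) without it. *Rora*, a nuclear receptor of relay neurons, had 7.95, 4.91 and 9.47 FPKM in cortex and 8.58, 1.28, 1.2 and 5.92 FPKM in thalamus, with mice 34 and 35 low and no call with or without mouse 34 (adjusted p = 0.276 and 0.394). The GC measure was highest in these same 2 libraries, and its part in these low values was not tested.

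Transcription factors that pattern the diencephalon were higher in thalamus. Of 19 tested, 15 were higher in thalamus and 0 in cortex, with a median of 3.28. The Iroquois homeobox genes *Irx1* (3.50 ± 0.44), *Irx2* (4.73 ± 0.58), *Irx3* (3.31 ± 0.43) and *Irx5* (3.36 ± 0.39) were all called (adjusted p = 0.00521, 0.0048, 0.00619 and 0.00411). *Irx2* had 0.0728, 0.0176 and 0.217 FPKM in cortex and 2.51, 5.85, 3.15 and 11.7 FPKM in thalamus. Its cortex libraries were close to 0, and mouse 36 was the highest in thalamus. *Gata3* and *Tal1*, factors of GABAergic neurons of the thalamic border and midbrain, had 1.51, 1.64, 1.98 and 4.85 and 2.09, 3.2, 2.73 and 4.33 FPKM in thalamus, with differences of 4.02 ± 0.48 (SE, adjusted p = 0.00454) and 2.10 ± 0.27 (SE, adjusted p = 0.0057). *Lhx1*, *Lhx5* and *Lhx9*, LIM homeobox factors, differed by 3.28, 3.8 and 2.63, and *Sox14*, a factor of inhibitory thalamic nuclei, by 3.33 (adjusted p = 0.0145, 0.0023, 0.0146 and 0.0115). The zinc finger factors *Zic1* and *Zic2* had differences of 2.34 ± 0.44 (SE, adjusted p = 0.0205) and 1.67 ± 0.29 (SE, adjusted p = 0.0156). *Six3* (1.56 (adjusted p = 0.023)) lost its call under the replicate block (adjusted p = 0.0607). Of the 15 calls, 9 held in each fit that leaves out 1 library, the fewest being called without the cortex of mouse 35.

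Of 10 telencephalic patterning factors, 5 were higher in cortex and 0 in thalamus, with a median of -0.96. Besides *Emx1*, *Tbr1* and *Neurod6* these were *Lhx2* and *Emx2*. *Lhx2*, a LIM homeobox selector of cortical fate, had 23, 27 and 25.3 FPKM in cortex and 13.2, 14.3, 13.9 and 8.28 FPKM in thalamus, with mouse 36 the lowest, and a difference of -1.04 ± 0.20 (SE, adjusted p = 0.0223). *Emx2* had 3.9, 3.88 and 4.0 FPKM in cortex and 2.56, 1.96, 2.08 and 1.77 FPKM in thalamus and a difference of -0.89 ± 0.17 (SE, adjusted p = 0.021), which did not pass under the replicate block (adjusted p = 0.0526). All 5 calls were lost without the cortex of mouse 34.

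The thalamus libraries also held markers of neurons that lie next to the thalamus, at levels that varied between mice. Of 11 hypothalamic markers tested, 4 were higher in thalamus, with a median of 3.36 and summed levels of 12.1, 13.8 and 19.1 FPKM in cortex and 325, 73.9, 343 and 79.1 FPKM in thalamus. *Hcrt*, the precursor of the arousal peptides called orexins, had 0.307, 0.446 and 0.422 FPKM in cortex and 37.2, 19.6, 91.3 and 8.74 FPKM in thalamus, and *Pmch*, the precursor of melanin-concentrating hormone, had 0.36, 0.116 and 0.0549 FPKM in cortex and 56.6, 8.22, 41.8 and 9.89 FPKM in thalamus. Mice 33 and 35 were the high pair for *Pmch*, mouse 36 was the lowest for *Hcrt*, and no thalamus library overlapped the cortex, with differences of 5.83 ± 0.70 (SE, adjusted p = 0.00467) and 6.41 ± 0.76 (SE, adjusted p = 0.00452). The other calls were the homeobox factor *Otp* (3.36 (adjusted p = 0.0177)) and the peptide precursor *Gal* (3.67 (adjusted p = 0.0042)), and of the 4 calls *Otp* was lost without the cortex of mouse 34. *Avp* and *Oxt*, the precursors of vasopressin and oxytocin, had 85.4, 5.11, 95.1 and 3.26 and 90.6, 3.16, 53.3 and 3.03 FPKM in thalamus, again high in mice 33 and 35, and did not pass (adjusted p = 0.0864 and 0.1), although *Oxt* did under the replicate block (0.0238). *Avp* passed without the thalamus of mouse 34 (4.97, adjusted p = 0.0398). *Pomc*, the precursor of melanocortins, had 1.43, 1.68 and 1.88 FPKM in cortex and 3.76, 4.2, 2.07 and 34.7 FPKM in thalamus, with mouse 36 standing above the others (adjusted p = 0.211).

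Dopamine neuron markers were higher in thalamus in all 5 genes tested, with summed levels of 5.64, 4.45 and 5.66 FPKM in cortex and 31, 119, 38.1 and 62.9 FPKM in thalamus. *Th*, the rate-limiting enzyme of dopamine synthesis, had 1.63, 0.989 and 0.911 FPKM in cortex and 7.16, 40.2, 10.6 and 10.6 FPKM in thalamus, and *Slc6a3*, the dopamine transporter, had 0.208, 0 and 0.0594 FPKM in cortex and 4.23, 39.6, 7.15 and 7.99 FPKM in thalamus. The thalamus of mouse 34 was the highest for both, and the differences were 3.45 ± 0.56 (SE, adjusted p = 0.0131) and 5.88 ± 0.76 (SE, adjusted p = 0.0057). *Ddc* (2.70 (adjusted p = 0.0048)), *Slc18a2* (2.52 (adjusted p = 0.0329)) and the homeobox factor *En1* (4.00 (adjusted p = 0.0037)) were also called, and *Slc6a3*, *Ddc* and *En1* held in each fit that leaves out 1 library while *Th* and *Slc18a2* were lost without the cortex of mouse 35 among others. *Slc6a4*, the serotonin transporter, was called too, with 0, 0.0158 and 0.149 FPKM in cortex and 4.25, 0.839, 1.81 and 19.98 FPKM in thalamus and a difference of 4.63 ± 0.98 (SE, adjusted p = 0.0289) resting on 11 reads over the cortex libraries. Here mouse 36 was the highest, and the call was lost without the cortex of mouse 34, 35 or 36 and without the thalamus of mouse 35 (highest adjusted p = 0.119). Of 4 habenular markers tested, only *Chrna3*, a nicotinic receptor subunit, was called (2.53 (adjusted p = 0.049), lost without the cortex of mouse 34). *Gpr151*, an orphan receptor of habenular neurons, had 0.439, 0.426 and 0.553 FPKM in cortex and 1.96, 0.823, 1.28 and 12.4 FPKM in thalamus. *Tac2*, the neurokinin B precursor, had 6.95, 6.63 and 7.15 FPKM in cortex and 9.04, 13.5, 10.6 and 24.6 FPKM in thalamus. Mouse 36 was the highest for both, and neither passed (adjusted p = 0.151 and 0.11).

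Striatal markers did not separate the regions, although the striatum was part of the thalamus piece. Of 34 markers of striatal projection neurons, 0 were higher in cortex and 1, *Six3*, was higher in thalamus, with a median of -0.05 (that 1 call was lost without the cortex of mouse 35), and the summed levels of 1575, 956 and 999.7 FPKM in cortex and 1269.7, 895, 2342 and 754 FPKM in thalamus overlapped. *Ppp1r1b*, the dopamine-regulated phosphatase inhibitor DARPP-32, had 259.5, 148 and 157 FPKM in cortex and 188, 121, 382 and 86.4 FPKM in thalamus, and *Drd2*, a dopamine receptor, had 28.1, 11.2 and 11.3 FPKM in cortex and 20.9, 20.5, 41.9 and 12.6 FPKM in thalamus. The cortex of mouse 34 was the highest cortex library for both genes and the thalamus of mouse 35 the highest thalamus library, and the adjusted p were 0.862 and 0.46. *Drd1*, *Adora2a*, *Penk*, *Pdyn*, *Tac1*, *Rgs9* and *Pde10a*, receptors, peptide precursors and signalling proteins of these neurons, had log2 differences between -0.89 and 0.52, and 0 of them passed. The cortex libraries held these defining markers in the range of the thalamus libraries, and whether striatal tissue was in the cortex pieces was not tested.

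**Figure D3:**
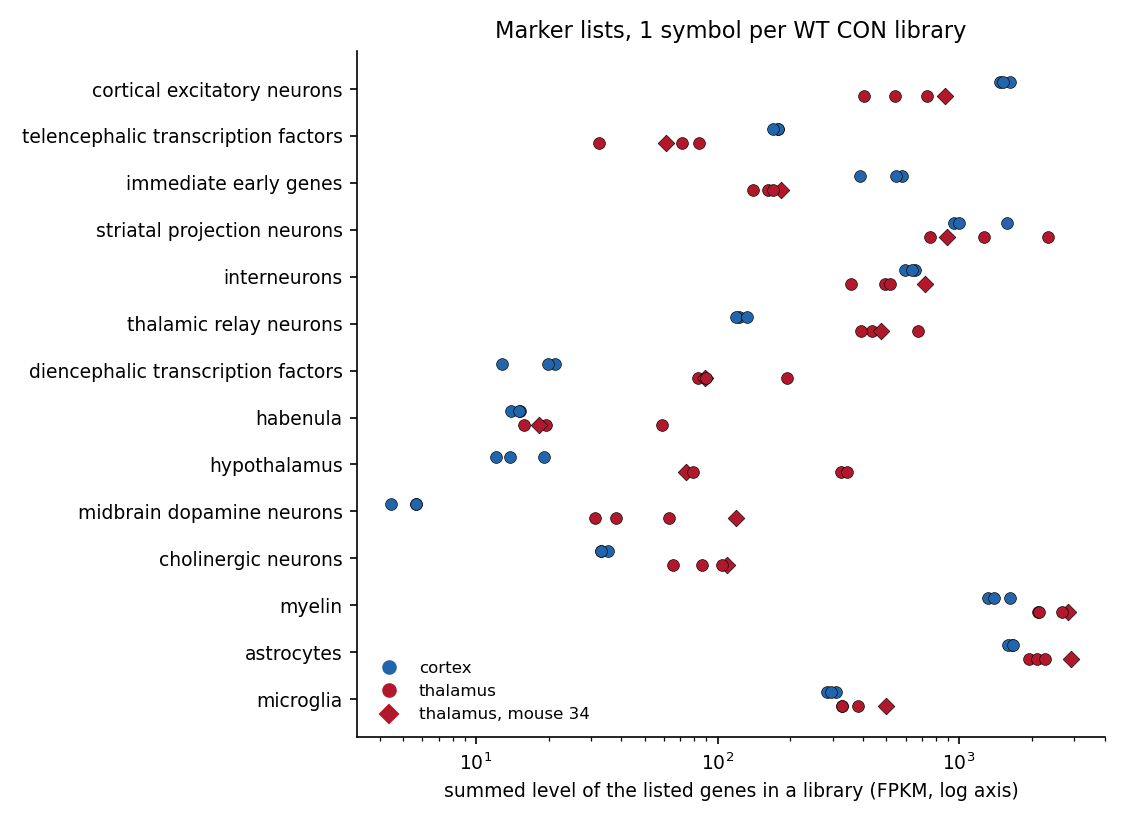
Summed level of 14 gene lists in each WT CON library, in FPKM on a log axis, with cortex in blue, thalamus in red and the thalamus of mouse 34 as a diamond. The relay neuron sums separate at 119.7 to 133 against 391 to 675 FPKM, while the striatal sums overlap at 956 to 1575 against 754 to 2342 FPKM.

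Neurons that use GABA and acetylcholine differed by component. Among 6 genes of GABA synthesis and transport, 3 were higher in thalamus and 0 in cortex. *Slc32a1*, which loads GABA into vesicles, had 51.6, 51.4 and 51 FPKM in cortex and 67.8, 124, 119 and 83 FPKM in thalamus, a difference of 0.89 ± 0.22 (SE, adjusted p = 0.0451). The other two were the degrading enzymes *Abat* (0.89 (adjusted p = 0.00564)) and *Aldh5a1* (0.37 (adjusted p = 0.0467), lost under the replicate block at 0.129). *Gad1* and *Gad2*, the enzymes that make GABA, had 124, 123 and 124 FPKM in cortex and 128, 139, 177 and 126 FPKM in thalamus and 32.3, 21.2 and 33.7 FPKM in cortex and 46.1, 6.34, 25.3 and 41.6 FPKM in thalamus, and neither passed (adjusted p = 0.349 and 0.791). The lowest *Gad2* value was that of the thalamus of mouse 34. Among 7 genes of cholinergic neurons, *Ache*, which degrades acetylcholine, had 27.1, 31.9 and 28.3 FPKM in cortex and 55, 88.8, 80.3 and 76.4 FPKM in thalamus and a difference of 1.35 ± 0.17 (SE, adjusted p = 0.00563). *Chat*, which makes acetylcholine, and *Ngfr*, a neurotrophin receptor of basal forebrain cholinergic neurons, were called at 1.57 (adjusted p = 0.0376) and 1.79 (adjusted p = 0.0315) and lost their calls under the replicate block (adjusted p = 0.0503 and 0.0554), under which *Slc18a3*, the vesicular transporter, gained one (0.0521 and 0.0344). *Slc5a7*, the choline transporter, had a difference of 0.17 (adjusted p = 0.87). In these 2 lists only *Abat* and *Ache* held in each fit that leaves out 1 library, and the others were lost without the cortex of mouse 34 among others.

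The interneuron peptides *Npy* and *Vip* were higher in cortex and *Sst* was not called. Of 20 interneuron markers, *Npy* and *Vip* were higher in cortex and *Adarb2*, an RNA-binding protein of interneurons from the caudal ganglionic eminence, was higher in thalamus (0.81 (adjusted p = 0.0454), lost under the replicate block at 0.112). *Vip*, vasoactive intestinal peptide, had 22.6, 22.1 and 21.8 FPKM in cortex and 7.33, 4.91, 4.2 and 4.76 FPKM in thalamus. The cortex values lay within 1 FPKM of each other, well over all thalamus values, and the difference of -2.08 ± 0.19 (SE, adjusted p = 0.00201) held in each fit that leaves out 1 library. *Npy*, neuropeptide Y, had 103, 111 and 102 FPKM in cortex and 46.2, 58.2, 40.7 and 26.6 FPKM in thalamus and a difference of -1.35 ± 0.24 (SE, adjusted p = 0.0177), which was lost without the cortex of mouse 34 among others. *Sst*, *Pvalb* and *Lhx6*, which mark interneurons from the medial eminence, had differences of -0.26, 0.36 and -0.35 (adjusted p = 0.518, 0.435 and 0.635). Of 17 neuropeptide precursors, *Npy*, *Cck* and *Vip* were higher in cortex and *Nts* (1.74 (adjusted p = 0.0143)), *Pnoc* (1.26 (adjusted p = 0.012)) and *Gal* in thalamus, of which *Vip* and *Gal* held in each fit that leaves out 1 library.

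**Figure D4:**
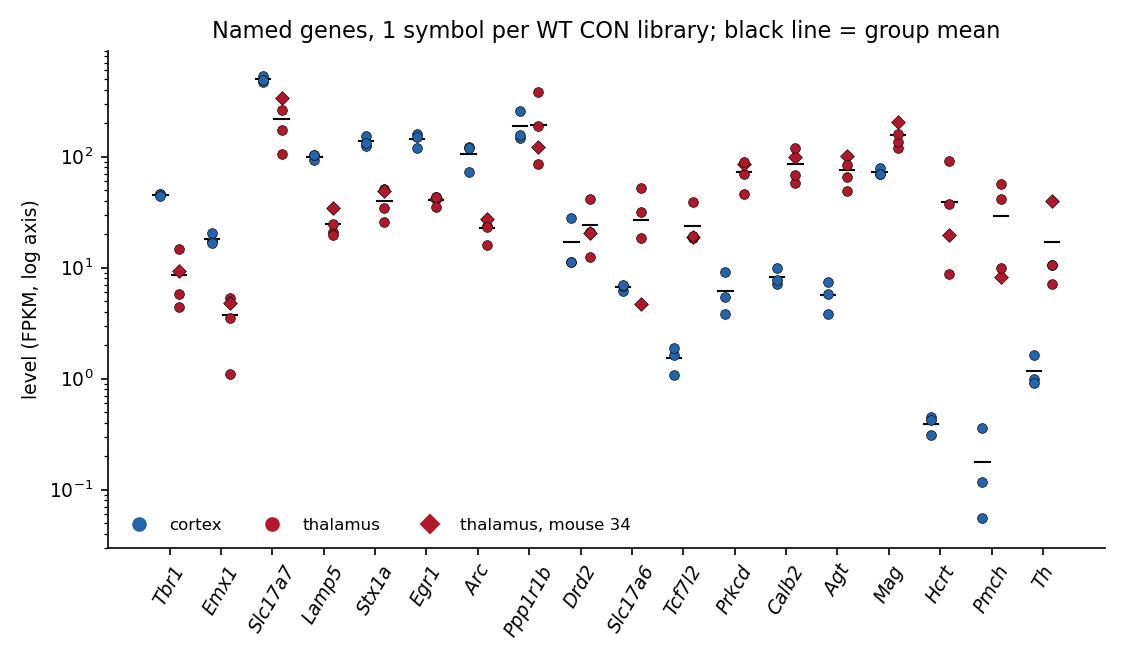
Levels of 18 genes in the 7 WT CON libraries, in FPKM on a log axis, with cortex in blue, thalamus in red, the thalamus of mouse 34 as a diamond and a black line at each group mean. *Tbr1*, *Emx1*, *Lamp5* and *Egr1* separate with cortex above, *Tcf7l2*, *Prkcd*, *Calb2* and *Hcrt* with thalamus above, and for *Slc17a6* the diamond lies at 4.72 FPKM under the cortex points.

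Receptors of glutamate and GABA changed subunit by subunit. Of 17 ionotropic glutamate receptor genes, 2 were higher in each region, all 4 coding for NMDA receptor subunits. *Grin2a* had 11.1, 11.3 and 12.3 FPKM in cortex and 5.36, 1.93, 3.58 and 2.89 FPKM in thalamus and *Grin2b* 20.2, 22.9 and 22.2 FPKM in cortex and 12.2, 3.34, 7.85 and 7.14 FPKM in thalamus. Both were higher in cortex, with the thalamus of mouse 34 the lowest, by -1.81 ± 0.31 (SE, adjusted p = 0.0154) and -1.64 ± 0.38 (SE, adjusted p = 0.04). *Grin2d* had 3.7, 4.44 and 4.54 FPKM in cortex and 9.3, 14.3, 11.2 and 14.2 FPKM in thalamus and was higher in thalamus by 1.5 ± 0.19 (SE, adjusted p = 0.00498), as was *Grin3a* (0.74 (adjusted p = 0.0271), lost under the replicate block at 0.0602). *Grin2c* and the AMPA receptor subunit *Gria4* differed by 0.39 and -1.16 (adjusted p = 0.136 and 0.284). Of 14 GABA-A receptor subunits, *Gabrd* was higher in cortex (-0.59 (adjusted p = 0.0416), lost under the replicate block at 0.0934), and *Gabre* and *Gabrq*, which both lie on the X chromosome, were higher in thalamus at 2.88 ± 0.33 (SE, adjusted p = 0.00411) and 3.12 ± 0.40 (SE, adjusted p = 0.00563). *Gabra2* and *Gabra5*, alpha subunits, had differences of -1.76 and -0.70 (adjusted p = 0.127 and 0.102), and both passed under the replicate block (0.039 and 0.0477). Of 7 metabotropic glutamate receptors only *Grm4*, a presynaptic receptor, passed (0.96 (adjusted p = 0.0152)), and *Grm2* differed by -0.99 (adjusted p = 0.0598). *Grin2d*, *Gabre* and *Gabrq* held in each fit that leaves out 1 library, and the other 5 calls were lost without the cortex of mouse 34 among others.

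Receptors of modulators gave 0 to 3 calls in each family, where 3.82% of all genes were called in cortex and 5.49% in thalamus. Of 5 muscarinic acetylcholine receptors, *Chrm3* had 19, 24.3 and 19.1 FPKM in cortex and 10.1, 8.96, 7.42 and 8.04 FPKM in thalamus and was higher in cortex by -1.26 ± 0.15 (SE, adjusted p = 0.00476). *Chrm5* was higher in thalamus (1.95 (adjusted p = 0.013)) and *Chrm1*, *Chrm2* and *Chrm4* differed by -1.19, -0.21 and -0.81 without passing. Of 6 nicotinic subunits, *Chrna3*, *Chrna6* (3.22 (adjusted p = 0.0138)) and *Chrnb2* (0.66 (adjusted p = 0.0435), lost under the replicate block at 0.0612) were higher in thalamus, and *Chrna4* differed by 0.61 (adjusted p = 0.0844). Of 7 adrenergic receptors, *Adrb1* was higher in cortex (-1.02 (adjusted p = 0.00967)) and *Adra2a* in thalamus (1.16 (adjusted p = 0.023)). *Adra1d* differed by -1.53 (adjusted p = 0.112) and passed without the thalamus of mouse 34 (-1.91, adjusted p = 0.0212). Of 10 serotonin receptors, *Htr5a* was higher in cortex (-0.84 (adjusted p = 0.017)) and *Htr7* in thalamus (0.77 (adjusted p = 0.0248)), and of 4 opioid and cannabinoid receptors *Oprd1* was higher in cortex (-1.04 (adjusted p = 0.0376)) and *Oprl1* in thalamus (0.80 (adjusted p = 0.0292)). These 4 did not pass under the replicate block (adjusted p = 0.0598, 0.0607, 0.0662 and 0.0524). *Htr2a* and *Htr2c* differed by -2.26 and 1.25 and the cannabinoid receptor *Cnr1* by -1.32 (adjusted p = 0.099, 0.108 and 0.191), and of 3 dopamine receptors tested 0 passed. In all these families only *Chrm3* held in each fit that leaves out 1 library, and the other calls were lost without the cortex of mouse 34, 35 or both.

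Ion channels that set the firing pattern of relay neurons were among the calls. Of the T-type calcium and HCN pacemaker channels, *Hcn4* had 1.03, 0.755 and 1.42 FPKM in cortex and 3.94, 7.55, 5.25 and 6.0 FPKM in thalamus and was higher in thalamus by 2.31 ± 0.28 (SE, adjusted p = 0.00476), in each fit that leaves out 1 library. *Hcn3* was higher in thalamus (0.75 (adjusted p = 0.0383)) and did not pass under the replicate block (0.051). Its call was lost without the cortex of mouse 34 among others. *Hcn2* and the T-type channels *Cacna1g*, *Cacna1h* and *Cacna1i* had differences of 0.75, 0.50, 0.14 and -0.27 (adjusted p = 0.0563, 0.0781, 0.759 and 0.238), and *Hcn2* passed under the replicate block (0.0488).

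Of 34 voltage-gated potassium channel genes, 8 were higher in cortex and 2 in thalamus, with a median of -0.69. *Kcnv1*, a silent modifier subunit, had 23, 15.5 and 22.9 FPKM in cortex and 7.29, 2.15, 3.12 and 1.99 FPKM in thalamus, a difference of -2.64 ± 0.44 (SE, adjusted p = 0.0139). *Kcns1*, another modifier subunit, had 10.3, 12.2 and 11.6 FPKM in cortex and 3.71, 5.56, 3.85 and 2.75 FPKM in thalamus (-1.54 ± 0.23 (SE, adjusted p = 0.00967)). The thalamus libraries were lower than every cortex library for both genes. *Kcnh1*, *Kcnh5*, *Kcnh7*, *Kcnq3* and *Kcnb2* were also called in cortex, at -1.32, -1.79, -2.58, -1.68 and -1.22, and *Kcnb2* did not pass after GC and length correction (0.877). *Kcnh2*, an ether-a-go-go-related channel, was higher in thalamus (1.09 (adjusted p = 0.0245)), as was the auxiliary subunit *Kcnip1* (0.67 (adjusted p = 0.0451)), which was lost under the replicate block (0.0526), and *Kcnh3* differed by -1.53 (adjusted p = 0.0616). All 10 calls were lost without the cortex of mouse 36. Of 8 sodium channel genes 0 passed, with a median of -0.72. Without the thalamus of mouse 34, 2 were higher in cortex, against 11.4% of all genes. In GFP-BM CON and in GFP-BM REPOP 4 each were higher in cortex, against 24.2% and 22.6% of all genes.

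Of 24 genes of the release machinery, 3 were higher in each region. *Stx1a*, a SNARE protein of the presynaptic membrane, had 125, 153 and 134 FPKM in cortex and 51.5, 48.9, 34.3 and 25.9 FPKM in thalamus. It was lower in every thalamus library by -1.82 ± 0.24 (SE, adjusted p = 0.00704), and this call held in each fit that leaves out 1 library. *Sv2b*, a synaptic vesicle protein, was also higher in cortex (-1.16 (adjusted p = 0.0191)), as was *Cplx3*. The calcium sensors *Syt2* (1.07 (adjusted p = 0.0428)) and *Syt9* (2.01 (adjusted p = 0.0114)) and the vesicle SNARE *Vamp1* (1.27 (adjusted p = 0.0205)) were higher in thalamus, and *Vamp1* had 60.2, 68.5 and 71.9 FPKM in cortex and 107, 227, 153 and 182 FPKM in thalamus. These last 5 calls were lost without the cortex of mouse 34 among others. Among 24 genes of cAMP signalling, 2 were higher in cortex and 1 in thalamus, where 3.82% and 5.49% of all genes were called. *Adcy1*, a calcium-stimulated adenylyl cyclase, had 103, 111 and 99.4 FPKM in cortex and 48.6, 47.1, 37.4 and 32.8 FPKM in thalamus, a difference of -1.35 ± 0.16 (SE, adjusted p = 0.00411). *Adcy2* was higher in cortex too (-0.63 (adjusted p = 0.0333), lost under the replicate block at 0.0799 and without the cortex of mouse 34), and *Adcy7* was higher in thalamus (1.29 (adjusted p = 0.00632)), whereas *Adcy5* and *Gnal* of striatal neurons differed by 0.32 and -0.10 (adjusted p = 0.477 and 0.89).

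Regulators of G protein signalling and calcium-dependent kinases differed as well. Of 15 RGS genes, *Rgs4* (-0.86 (adjusted p = 0.0159), and 0.0696 after GC and length correction) and *Rgs11* (-1.01 (adjusted p = 0.0115)) were higher in cortex. *Rgs3* (1.20 (adjusted p = 0.0121)), *Rgs8* (0.80 (adjusted p = 0.0197)), *Rgs10* (0.58 (adjusted p = 0.049), lost under the replicate block at 0.0562 and after the correction at 0.0591) and *Rgs16* were higher in thalamus. *Rgs16* had 5.13, 5.56 and 5.66 FPKM in cortex and 15.7, 24.5, 15.6 and 27.5 FPKM in thalamus. Its difference of 1.87 ± 0.23 (SE, adjusted p = 0.0048) was the RGS call that held in each fit that leaves out 1 library, the other 5 being lost without the cortex of mouse 34 among others. *Rgs9* and *Rgs14* differed by -0.30 and -0.61 (adjusted p = 0.752 and 0.263). Of 12 genes of calcium signalling and plasticity, 3 were higher in cortex and 0 in thalamus, with a median of -1.10. *Camkk2*, the kinase upstream of CaM kinases, had 81.3, 76.5 and 80.03 FPKM in cortex and 38.5, 32.3, 33.6 and 23.1 FPKM in thalamus, and its difference of -1.34 ± 0.17 (SE, adjusted p = 0.0057) held in each fit that leaves out 1 library. *Nrgn*, neurogranin, which binds calmodulin in dendrites, had 1438, 1525 and 1503 FPKM in cortex and 573, 677, 543 and 185 FPKM in thalamus. The thalamus of mouse 36 was the lowest by far, and the difference of -1.74 ± 0.42 (SE, adjusted p = 0.0453) did not pass under the replicate block (0.0505), like that of *Camk2g* (-0.49 (adjusted p = 0.0269) and 0.105). Both were lost without the cortex of mouse 34 among others. *Camk2a*, *Camk4* and *Camkv* differed by -1.16, -2.39 and -0.20 (adjusted p = 0.0594, 0.058 and 0.574), and *Camk4* passed under the replicate block (0.0305). Without the thalamus of mouse 34, *Camk2a* and *Camk4* passed (adjusted p = 0.0203 and 0.0366) and *Camkv* did not (0.311).

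Immediate early genes, which neurons switch on within minutes of activity, were all higher in cortex. All 12 listed genes passed, with a median log2 difference of -1.33 and 0 overlaps between the regions. Of all genes, 3.82% were called in cortex and 18.1% had groups that did not overlap with cortex higher. *Egr1* had 119, 158 and 152 FPKM in cortex and 43.2, 41.3, 43.3 and 35.1 FPKM in thalamus, and *Arc*, a cytoskeletal protein of active synapses, had 73, 122 and 119.6 FPKM in cortex and 23.9, 27.1, 23.3 and 16.1 FPKM in thalamus. The cortex of mouse 34 was the lowest cortex library for both, and it still lay above every thalamus library, with differences of -1.80 ± 0.14 (SE, adjusted p = 0.00152) and -2.20 ± 0.24 (SE, adjusted p = 0.00321). *Fos* had 16.8, 24.7 and 25.4 FPKM in cortex and 7.41, 9.64, 9.99 and 14 FPKM in thalamus, a difference of -1.12 ± 0.24 (SE, adjusted p = 0.0302), with mouse 36 the highest in thalamus. *Npas4*, a factor induced by calcium influx, had 10.9, 13.1 and 11.2 FPKM in cortex and 5.14, 3.91, 4.41 and 3.94 FPKM in thalamus (-1.41 ± 0.15 (SE, adjusted p = 0.00287)). *Nr4a1*, an orphan nuclear receptor, had 57.4, 87.1 and 83.5 FPKM in cortex and 23, 23.5, 22 and 18.1 FPKM in thalamus (-1.79 ± 0.17 (SE, adjusted p = 0.0023)). *Egr2* (-2.50 (adjusted p = 0.004)), *Egr4* (-1.45 (adjusted p = 0.0176)), *Junb* (-1.24 (adjusted p = 0.0189)), *Fosb* (-1.09 (adjusted p = 0.0261)), *Ier2* (-1.05 (adjusted p = 0.0388)), *Btg2* (-0.98 (adjusted p = 0.0147)) and *Dusp1* (-0.91 (adjusted p = 0.0192)) made up the rest. *Fosb*, *Junb*, *Dusp1*, *Ier2* and *Btg2* did not pass under the replicate block (adjusted p = 0.0808, 0.0568, 0.0648, 0.097 and 0.0554), and *Egr1*, *Egr2*, *Arc*, *Npas4* and *Nr4a1* held in each fit that leaves out 1 library, the fewest being called without the cortex of mouse 35. In GFP-BM CON mice 12 of the 12 were higher in cortex at an adjusted p under 0.05, and in GFP-BM REPOP mice 8. The shares of all genes higher in cortex there were 24.2% and 22.6%.

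The promoters of several of these genes are shown because the genes moved together. The letters TGACG, the core of the element that binds the cAMP- and calcium-regulated factor CREB, were searched on both strands in the 250 bases before each start listed by RefSeq for GRCm38.p6. Of the 12 genes 9 were searched, and *Arc*, *Egr1* and *Ier2* were not. The letters were found for 8 of the 8 searched genes with 1 start and at 3 of the 5 starts of *Egr2*, against 17.77% of all 32851 promoters of that length (5836 of them), and a match is a description and not a bound site. The sequences of 3 genes whose calls are given above are shown from 5′ to 3′ on the gene's strand, with TGACG and its reverse complement CGTCA in capitals, at chr12:85473640-85473889 (plus strand), chr19:4989972-4990221 (minus strand) and chr15:101266596-101266845 (plus strand).
Fos: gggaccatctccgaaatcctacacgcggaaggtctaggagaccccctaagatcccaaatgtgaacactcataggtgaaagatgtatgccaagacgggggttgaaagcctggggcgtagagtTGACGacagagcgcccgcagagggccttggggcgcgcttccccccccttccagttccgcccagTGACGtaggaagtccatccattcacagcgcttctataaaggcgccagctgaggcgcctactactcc
Npas4: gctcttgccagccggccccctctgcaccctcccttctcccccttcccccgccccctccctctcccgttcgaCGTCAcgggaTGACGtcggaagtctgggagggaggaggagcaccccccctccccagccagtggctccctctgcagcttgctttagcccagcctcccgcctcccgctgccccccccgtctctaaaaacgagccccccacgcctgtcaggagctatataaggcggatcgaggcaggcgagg
Nr4a1: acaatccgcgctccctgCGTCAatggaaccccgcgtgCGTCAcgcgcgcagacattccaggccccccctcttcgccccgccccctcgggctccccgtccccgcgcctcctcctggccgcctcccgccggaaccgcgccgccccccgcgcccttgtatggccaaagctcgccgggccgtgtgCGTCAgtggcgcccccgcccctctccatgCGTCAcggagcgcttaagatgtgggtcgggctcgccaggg

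Myelin and astrocyte genes were higher in thalamus. Of 20 myelin and oligodendrocyte genes, 13 were higher in thalamus and 0 in cortex, with a median of 0.83 and summed levels of 1618, 1316 and 1394 FPKM in cortex and 2111, 2816, 2138 and 2656 FPKM in thalamus. *Mbp*, myelin basic protein, had 408, 367 and 339 FPKM in cortex and 566, 1019.9, 697 and 765 FPKM in thalamus and *Mag*, an adhesion protein of the inner myelin layer, 78.9, 70.2 and 69.98 FPKM in cortex and 121, 204, 136 and 159.5 FPKM in thalamus. Neither had overlapping groups, and both were highest in the thalamus of mouse 34, with differences of 1.01 ± 0.20 (SE, adjusted p = 0.0236) and 1.06 ± 0.18 (SE, adjusted p = 0.0154). *Mog* was called with the smallest adjusted p of the list, at 0.93 ± 0.13 (SE, adjusted p = 0.00831). *Mobp* (0.83 (adjusted p = 0.021)) and *Mal* (0.63 (adjusted p = 0.0321)) passed too, but not after GC and length correction (0.114 and 0.0764), and *Mal* did not pass under the replicate block (0.0723). After the correction, 9 of the 13 calls were kept. None of the 13 held in every fit that leaves out 1 library, and all were lost without the cortex of mouse 35. Of 9 genes of oligodendrocyte precursors and early oligodendrocytes, *Olig1* (0.95 (adjusted p = 0.0221)), *Olig2* (0.83 (adjusted p = 0.031)), *Sox10* (0.89 (adjusted p = 0.0261)) and *Bcas1* (0.95 (adjusted p = 0.0152)) were higher in thalamus, and these 4 calls were lost without the cortex of mouse 34 as well. *Pdgfra*, the receptor that defines precursors, differed by 0.24 (adjusted p = 0.303).

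Of 22 astrocyte genes, 9 were higher in thalamus and 0 in cortex, with a median of 0.58. *Agt*, angiotensinogen, had 3.85, 5.79 and 7.46 FPKM in cortex and 48.5, 102, 65.6 and 84.8 FPKM in thalamus. This was the largest difference of the list at 3.69 ± 0.30 (SE, adjusted p = 0.00168), and no thalamus library came near the cortex. *Slc6a11*, a GABA transporter of astrocytes, had 36.5, 40.8 and 40.8 FPKM in cortex and 124, 219.5, 162 and 191 FPKM in thalamus, and *Itih3*, a secreted matrix protein, had 8.5, 8.27 and 7.85 FPKM in cortex and 32.2, 43.2, 39.4 and 37.9 FPKM in thalamus. These differed by 2.11 ± 0.19 (SE, adjusted p = 0.00193) and 2.20 ± 0.12 (SE, adjusted p = 0.000507), and with *Agt* they held in each fit that leaves out 1 library. *Gfap*, the intermediate filament of astrocytes, had 35.9, 35.4 and 41.9 FPKM in cortex and 63, 146, 69 and 75.3 FPKM in thalamus and a difference of 1.14 ± 0.28 (SE, adjusted p = 0.0472). The others were *Gja1* (0.55 (adjusted p = 0.0159)), *S100b* (0.80 (adjusted p = 0.048)), *Kcnj10* (0.77 (adjusted p = 0.0315)), and the glycine and serine transporters *Slc6a9* (1.44 (adjusted p = 0.0111)) and *Slc7a10* (0.74 (adjusted p = 0.0462)). *Gja1* and *Slc7a10* did not pass under the replicate block (0.0607 and 0.059), and these 5 and *Gfap* were lost without the cortex of mouse 34 among others. *Aqp4*, a water channel, and *Mfge8*, a secreted bridging protein, differed by 0.11 and -0.09 (adjusted p = 0.914 and 0.8), and *Aqp4* was lowest in the thalamus of mouse 34 at 4.61 FPKM.

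Microglia, vessels and linings gave few calls in the main WT CON fit, in which 3.82% of all genes were called in cortex and 5.49% in thalamus. Of 18 microglia markers 0 passed, with a median of 0.27, and *P2ry12*, *Tmem119* and *Cx3cr1* differed by -1.35, 0.26 and 0.18 (adjusted p = 0.244, 0.442 and 0.478). Without the thalamus of mouse 34, 3 of the 18 were higher in thalamus, against 10.9% of all genes. In GFP-BM CON 7 were higher in thalamus and 1 in cortex, and in GFP-BM REPOP 9 and 0. The shares of all genes higher in thalamus there were 16.9% and 17.2%. Of 14 vessel markers 0 passed, with *Cldn5* and *Pdgfrb* at 0.45 and 0.42. Of these 14, 4 were higher in thalamus without the thalamus of mouse 34, 3 in GFP-BM CON and 4 in GFP-BM REPOP. Of 6 choroid plexus markers 0 passed, and *Ttr*, its secreted thyroid hormone carrier, had 442, 410.1 and 399 FPKM in cortex and 96.6, 243, 83.6 and 407 FPKM in thalamus, so that the thalamus of mouse 36 reached the cortex level and the other 3 did not. Of 5 ependymal markers 0 passed, with *Foxj1* at 1.18 (adjusted p = 0.0801, and 0.0291 under the replicate block). Of 6 meningeal markers only *Dcn*, a proteoglycan of fibroblasts, passed (1.15 (adjusted p = 0.0292), lost under the replicate block at 0.0884 and without the cortex of mouse 34), and of 3 red cell genes 0.

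Genes of axons and contacts gave 1 to 4 calls in each list, where 3.82% of all genes were called in cortex and 5.49% in thalamus. Among these lists only that of Eph receptors and ephrins held calls in cortex. Among 5 neurofilament genes *Nefh*, the heavy chain, had 20.7, 23.9 and 24.5 FPKM in cortex and 37.8, 88.9, 52.8 and 66.3 FPKM in thalamus and was higher in thalamus by 1.35 ± 0.27 (SE, adjusted p = 0.0237), while *Nefm* and *Nefl* differed by -0.28 and 0.06 (adjusted p = 0.529 and 0.681). Of 18 Eph receptors and ephrins, *Ephb6* had 51, 53.8 and 48.7 FPKM in cortex and 22.4, 32.1, 23.8 and 20.2 FPKM in thalamus and was higher in cortex by -1.07 ± 0.16 (SE, adjusted p = 0.0104), as was *Ephb3* (-0.88 (adjusted p = 0.0304), lost under the replicate block at 0.0841). *Efnb3* (0.97 (adjusted p = 0.016)) and *Epha8* (1.31 (adjusted p = 0.0187)) were higher in thalamus. *Epha4* and *Efna5* differed by -1.38 and -1.55 (adjusted p = 0.123 and 0.109). Both passed without the thalamus of mouse 34 (-0.89 and -1.05, adjusted p = 0.00428 and 0.0173). Of 13 cadherins, *Cdh4* and *Cdh13* were higher in thalamus (0.95 (adjusted p = 0.0181) and 0.58 (adjusted p = 0.0358)) and did not pass under the replicate block (0.0565 and 0.0674), and *Cdh6* and *Cdh9* differed by -1.62 and -1.17, of which *Cdh6* passed under the block (0.0324). Of 9 genes of the extracellular matrix of neurons, *Hapln2* and *Tnc* were higher in thalamus (0.88 (adjusted p = 0.0312) and 1.45 (adjusted p = 0.023)). *Hapln2* is also on the myelin list and is among its 13 calls. *Acan* and *Hapln4* differed by 0.80 and 0.02. *Hapln2* and *Cdh13* did not pass after GC and length correction (0.151 and 0.0536). Of 14 retinoid genes, *Aldh1a1*, an enzyme that makes retinoic acid, had 18.1, 14.3 and 17.5 FPKM in cortex and 34.5, 66.6, 43 and 51.2 FPKM in thalamus (1.51 ± 0.22 (SE, adjusted p = 0.00922)). *Cyp26b1*, which degrades retinoic acid, was higher in thalamus as well (1.66 (adjusted p = 0.0231)). *Rarb*, *Rxrg* and *Rbp4* differed by -0.25, 0.11 and -0.82 without passing. Of 5 hippocampal markers only *C1ql2*, a ligand of granule cell synapses, passed (2.30 (adjusted p = 0.0391), lost under the replicate block at 0.0828), with 31.5 FPKM in the thalamus of mouse 34, and *Prox1* differed by 0.57. None of the calls in these 6 lists held in every fit that leaves out 1 library, and they were lost without the cortex of mouse 34, 35 or both.

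The largest differences over all genes were partly outside the lists. Among genes with a mean of at least 5 FPKM in the higher region, the 12 largest in cortex included *Trbc2* (-3.56), *Ovol2* (-3.53), *Igfn1* (-3.23), *Mef2c*, *Ipcef1* (-2.87), *Dkkl1* (-2.82), *Hkdc1* (-2.72), *Kcnv1*, *Myl4* (-2.59), *Tbr1* and *Neurod6*. *Trbc2*, annotated as a constant region of the T cell receptor, had 35.5, 40.3 and 30.5 FPKM in cortex and 5.33, 3.42, 1.59 and 2.39 FPKM in thalamus, and *Hkdc1*, a hexokinase domain protein, had 4.69, 5.46 and 5.29 FPKM in cortex and 0.903, 0.703, 0.554 and 0.66 FPKM in thalamus. Both had every thalamus library far under the cortex, with adjusted p of 0.00287 and 0.00152. *Igfn1* had 8.04, 6.61 and 9.21 FPKM in cortex and 3.08, 0.507, 0.495 and 0.353 FPKM in thalamus, and the thalamus of mouse 33 stood above the other 3. The 12 largest in thalamus were *Pmch*, *Slc6a3*, *Hcrt*, *Irx2*, *Slc6a4*, *Lhx1os* (4.39), *Shox2*, *Dlk1* (4.23), *Baiap3* (3.91), *Tcf7l2*, *AW551984* (3.71) and *Agt*. *Baiap3*, which takes part in dense-core vesicle traffic, had 2.62, 1.83 and 3.04 FPKM in cortex and 37.7, 41.7, 34.6 and 38.6 FPKM in thalamus, and *Dlk1*, a Notch-related ligand, had 0.587, 0.885 and 1.4 FPKM in cortex and 15.8, 30.2, 19.9 and 12.9 FPKM in thalamus. Their thalamus libraries were close together for *Baiap3* and spread for *Dlk1*, with adjusted p of 0.00022 and 0.00187. Of the 12 genes each, 5 in cortex and 9 in thalamus held in each fit that leaves out 1 library, with the fewest left without the cortex of mouse 34, 35 or 36 and without the cortex of mouse 35, and all 24 passed under the replicate block.

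The same contrast was then read in the GFP-BM mice, whose libraries are not those of WT CON. In GFP-BM CON 3393 genes (24.2%) were higher in cortex and 2375 (16.9%) in thalamus, and in GFP-BM REPOP 3171 (22.6%) and 2409 (17.2%). Of the 535 genes higher in WT CON cortex, 535 had the same direction in GFP-BM CON and 517 (96.6%) passed there, and 533 and 500 (93.5%) did in GFP-BM REPOP. Of the 770 genes higher in WT CON thalamus, 768 had the same direction in GFP-BM CON and 719 (93.4%) passed, and 770 and 724 (94.0%) did in GFP-BM REPOP. In total 492 and 697 passed in both groups, and 0 genes passed in the opposite direction in either. Across the 14021 genes the log2 differences of WT CON and GFP-BM CON had a Pearson r of 0.78 and those of WT CON and GFP-BM REPOP 0.77, which were 0.87 and 0.87 without the thalamus of mouse 34. Genes are not independent replicates, and these values describe 2 sets of libraries from 1 sequencing series.

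**Figure D5:**
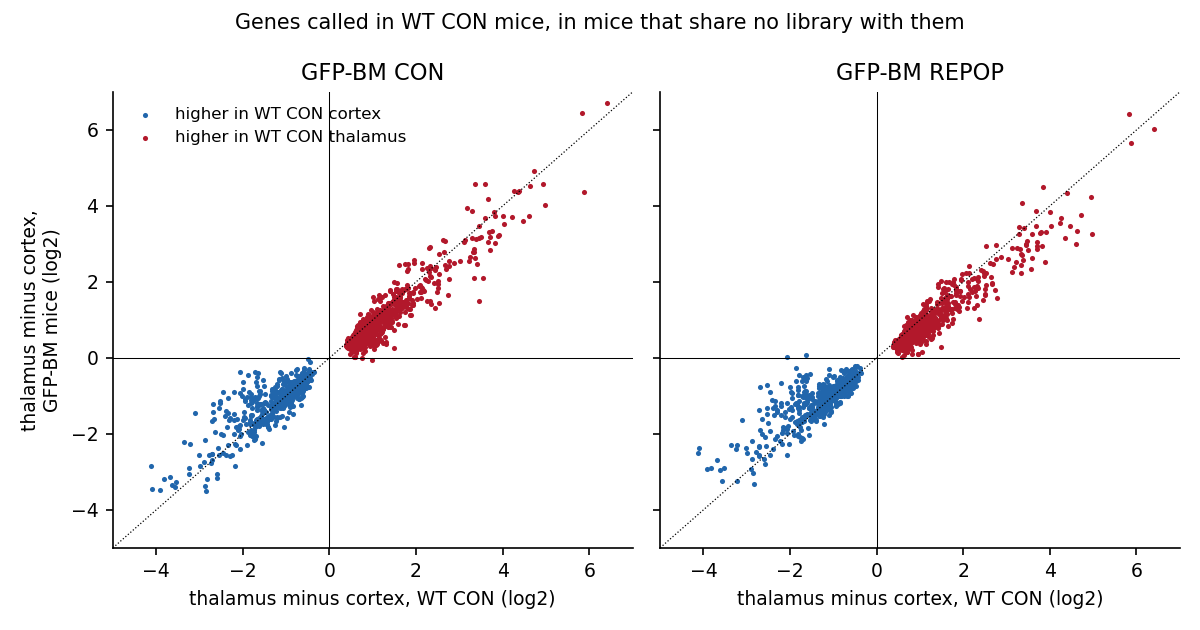
Each point is a gene called in WT CON mice, with its WT CON thalamus minus cortex difference on the x axis and that in GFP-BM CON (left) or GFP-BM REPOP (right) on the y axis, both on the log2(FPKM + 0.1) scale; the dotted line marks equality. Of the genes higher in WT CON cortex (blue) 535 and 533 lie under 0, and of those higher in thalamus (red) 768 and 770 lie above 0.

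Several genes that were low in the WT CON thalamus of mouse 34 and did not pass in WT CON passed in the GFP-BM mice. *Slc17a6* was higher in thalamus by 2.57 in GFP-BM CON and 2.26 in GFP-BM REPOP (adjusted p = 1.87e-06 and 5.38e-05), *Gad2* by 0.83 and 0.90 (2.6e-05 and 0.00244), *Aqp4* by 0.99 and 1.00 (0.000623 and 0.000104) and *Rora* by 0.55 and 0.52 (0.0136 and 0.023). *Slc17a7* was higher in cortex in both, with differences of -1.48 and -1.61 (adjusted p = 2.23e-07 and 0.00105). *Ppp1r1b* did not pass in either, at -0.55 and -0.10 (adjusted p = 0.185 and 0.735). *Tbr1*, *Tcf7l2* and *Hcrt* had -2.57, 3.74 and 6.44 in GFP-BM CON and -2.33, 2.94 and 6.43 in GFP-BM REPOP, all of them past the threshold.

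The test of the difference itself, a contrast of the 2 contrasts over 22 libraries in 1 limma fit, called 0 genes (0.0%) for GFP-BM CON against WT CON and 0 (0.0%) for GFP-BM REPOP against WT CON. The smallest adjusted p were 0.46 and 0.39, and 1242 and 1615 genes had an unadjusted p under 0.05. The 5 genes with the smallest p were *Gprin2*, *Gm16701*, *Cdh13*, *Igsf21* and *Hist1h2bg* for GFP-BM CON, and *Emc9*, *Avpi1*, *D130040H23Rik*, *Gtf3a* and *Dgkh* for GFP-BM REPOP. *Gprin2*, a G protein-regulated inducer of neurite outgrowth, differed by 2.45 in WT CON and 1.31 in GFP-BM CON, and *Emc9*, a subunit of a membrane protein insertase, by 0.68 in the WT CON mice and 0.14 in GFP-BM REPOP. These did not pass and are given as values.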

How the data were processed

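RNA of cortex and of thalamus dissected with striatum was sequenced as paired-end libraries on NovaSeq and HiSeq instruments, and which library ran on which is not given in the sources used here. Per the labels' processing notes and the methods, the authors aligned reads with STAR to mm10, counted them per gene with featureCounts, kept protein-coding and long noncoding genes above a minimum level and made length-normalised values with limma and edgeR. The deposited values are FPKM for 16389 genes in 34 libraries. Over all genes and libraries the values were whole multiples of 1 read in 100.0% of cases (tolerance 0.001), which gave read totals of 17085018 to 26010509 per library. More reads give smaller counting error. Replicates are libraries of separate mice.

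Genes with an FPKM of at least 1 in 3 or more of the 7 libraries were tested on log2(FPKM + 0.1) with limma 3.58.1 in R 4.3.3 (lmFit, and eBayes with trend), two-sided, with Benjamini-Hochberg adjustment over 14021 genes. A fold on this scale understates the change of low genes. The GFP-BM contrasts used the same genes, and the contrasts of contrasts 22 libraries in 1 fit. Same-numbered libraries come from the same mouse, and the deviations of the 3 pairs correlated at -0.185, 0.364 and 0.372, so a fit with the mouse as a block was an alternative. Other alternatives were pseudocounts, filters, scalings, GC content and length correction, library weights and a count-based fit (voom) of the recovered reads. GC content and length were those of the longest GENCODE transcript of a gene and were known for 13067 genes. Gene positions and promoters were taken from RefSeq GRCm38.p6, the build of mm10.

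Named genes were the 12 largest called changes per direction with groups that do not overlap and a mean of at least 5 FPKM, leaving out predicted models and genes with no symbol, plus the core members, the largest called changes and small counts of each list, and the 5 smallest p of each contrast of contrasts. The 45 lists hold 554 symbols, of which 548 were in the table and 521 were tested. The regions compared and the lists were chosen with earlier results of these data known. Some genes that these rules name are not reported here. The GFP-BM CON thalamus of mouse 7 was not analysed here.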

Additional observations from a re-analysis of the deposited data

Results flagged for a closer look

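Among the 4 WT CON thalamus libraries, 15 of 243 named genes had 1 library far from the other 3 by Dixon's test on the log2(FPKM + 0.1) scale, and chance alone marks about 1 group in 20. The thalamus of mouse 34 was the high library for *C1ql2* (31.5 FPKM), *Ephb3* (5.71 FPKM), *Grin2c* (21.9 FPKM), *Nxph4* (17 FPKM) and *Pdgfrb* (8.22 FPKM), and the low one for *Htr2c* (7.22 FPKM). In mouse 36 the thalamus was the low library for *Kcnh3* (7.81 FPKM), *Lhx2* (8.28 FPKM), *Nrgn* (185 FPKM) and *Rgs14* (6.93 FPKM), which are markers or signalling genes of the telencephalon, and the high one for *Tcf7l2* (38.8 FPKM) and *Camk2g* (75.9 FPKM). That of mouse 33 was high for *Igfn1* (3.08 FPKM) and low for *Aldh5a1* (24.8 FPKM) and *Grm4* (12 FPKM). That of mouse 35 stood apart for 0 genes.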

How the results depend on the processing

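The 535 genes higher in cortex and 770 higher in thalamus became 626 and 780 with a pseudocount of 1, 509 and 763 with 0.01, 588 and 851 with no filter, and 497 and 747 with a stricter filter. Counts moved by more than 1.5 times to 2552 and 1975 when all 9 groups entered 1 fit, 2570 and 2064 with library weights, 1513 in cortex (969 in thalamus) once GC content and length were corrected for, and 2061 (1425 in thalamus) with that and without the thalamus of mouse 34, a fit chosen after seeing the data. In thalamus they moved to 1518 with quantile normalization, under which the median log2 difference of all genes was 0.071 against -0.009, and to 490 with the 3 WT CON regions in 1 fit. The replicate block on the mouse gave 690 and 501, and a random block 516 and 757. Apart from the fits without 1 library, the share of calls higher in thalamus ran from 39% to 66%, against 59%, and the cause was not tested. Leaving out 1 library gave 81 to 1597 genes in cortex and 154 to 1528 in thalamus. Fits to the recovered reads called 629 and 951 genes. Of 162 named genes called, 162 kept their direction in every alternative run, 111 lost the call in some fit without 1 library, and 127 kept it with the replicate block. Of the named genes not called, 23 gained a call without the thalamus of mouse 34. The GFP-BM counts were run with the replicate block and without each library and stayed within 1.5 times. The contrasts of contrasts were run with a random block, a pseudocount of 1, all 9 groups and without each WT CON library, and called 0 genes in each. Taken over the fifth of genes in place of the tenth, the GC measure differed by 0.834 (exact permutation p = 0.114, two-sided).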

Other observations

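Outside the lists, and chosen after their values were seen, 2 pituitary hormone genes varied widely between mice. *Prl*, prolactin, had 52.8, 0.0971 and 0.688 FPKM in cortex and 6.55, 137, 0.748 and 25.8 FPKM in thalamus, and *Gh*, growth hormone, had 8.31, 0 and 0.203 FPKM in cortex and 1.78, 34.1, 0.0972 and 6.13 FPKM in thalamus. Mouse 34 was the highest in both regions for both genes, and neither passed the test between regions (adjusted p = 0.443 and 0.454, and 0.0662 and 0.0766 under the replicate block). In mice 34, 35 and 36 both genes were higher in thalamus than in the cortex of the same mouse. For mouse 35 this rests on values under 1 FPKM in both regions. *Tph2*, the neuronal enzyme of serotonin synthesis, had 0.307, 0.48 and 0.516 FPKM in cortex and 5.2, 1.33, 2.38 and 29.1 FPKM in thalamus, and the order of the thalamus libraries was that of the serotonin transporter *Slc6a4*, with mouse 36 the highest and mouse 34 the lowest. *Tph2* did not pass (adjusted p = 0.075).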
